A study of Mus musculus with 24 samples.

Results

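The data are 10 genes that serve protein folding in the endoplasmic reticulum (ER), followed in the perigonadal fat of mice with extra lipoprotein lipase (LPL) in their adipocytes. They were chosen by symbol in the deposited annotation, as the ER chaperones and foldases Hspa5, Hsp90b1, Pdia4, Pdia6, Dnajb9 and Sdf2l1, the sensors Ern1 and Atf6, the transcription factor Xbp1 and the degradation factor Herpud1. All 10 were on the array, each with 1 transcript cluster (the group of probes that reports a gene), out of 24647 genes with a symbol. All 10 also passed the floor, a group mean of 5 on the log2 scale in 1 genotype or both, which left 20208 clusters to test.

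Perigonadal fat came from 24 male C57BL/6 mice, with 1 Affymetrix mouse array per mouse. The 12 Control mice were labelled AdipoQ-LpL -/- and the 12 AdipoQ-LPL mice AdipoQ-LpL -/+, that is, littermates without and with a transgene for LPL driven by the adiponectin promoter, which is active in adipocytes. All mice were 9.5 weeks old at the start and ate a diet with 60% of calories from fat for 10 days, so no chow-fed mice enter the comparison. The values are log2 intensities normalized by RMA, and a difference is AdipoQ-LPL minus Control on the log2 scale throughout.

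The lumen of the ER is where secreted and membrane proteins fold. When unfolded proteins build up there, the kinase and nuclease IRE1 (the product of Ern1) cuts Xbp1 mRNA so that it is spliced into the form that encodes an active transcription factor. ATF6, a membrane-bound factor, travels to the Golgi and is cleaved there to release another activator. Both raise the transcription of chaperones, and the chaperone BiP (Hspa5) holds the sensors in check when it is free. Adipocytes secrete adiponectin, leptin and LPL itself, and LPL needs ER chaperones and its own maturation factor to fold. The array reads Xbp1 as 1 transcript cluster, so the spliced and unspliced forms are not separated in these values.

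Elements that the factors of this response are known to bind lie upstream of some of these genes. A 300-base RefSeq promoter (250 bases before the start and 50 after it, build GRCm38.p6) was found for 9 of the 10 genes, Atf6 being the other. Each was searched on both strands for the ER stress element (ERSE) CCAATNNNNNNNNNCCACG, for ERSE-II, in which ATTGG and CCACG stand 1 base apart, and for the core of the XBP1 element (UPRE) in the forms TGACGTGG and TGACGTGA. An ERSE lay in the promoters of Hspa5, Hsp90b1 and Pdia6, against 0.119% of all 32851 promoters of the table. ERSE-II lay in that of Herpud1, against 0.0365% of promoters, and a UPRE core in that of Hspa5, against 1.12%. None of these letters was found in the windows of Ern1, Xbp1, Pdia4, Dnajb9 and Sdf2l1. The matches do not overlap each other. The 4 promoters with a match are shown here up to the start site, 5′ to 3′ on the gene's strand, with the matches in capitals. Those of Hspa5 (chr2:34771840-34772089, plus strand) and Hsp90b1 (chr10:86705445-86705694, minus strand) are shown over the 250 bases before the start, and those of Pdia6 (chr12:17266440-17266559, plus strand) and Herpud1 (chr8:94386309-94386428, plus strand) over 120 bases.
Hspa5: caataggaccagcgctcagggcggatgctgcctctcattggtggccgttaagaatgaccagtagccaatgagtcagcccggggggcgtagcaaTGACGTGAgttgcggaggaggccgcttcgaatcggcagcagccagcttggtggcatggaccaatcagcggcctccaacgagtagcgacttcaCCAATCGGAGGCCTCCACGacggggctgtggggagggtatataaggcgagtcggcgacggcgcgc
Hsp90b1: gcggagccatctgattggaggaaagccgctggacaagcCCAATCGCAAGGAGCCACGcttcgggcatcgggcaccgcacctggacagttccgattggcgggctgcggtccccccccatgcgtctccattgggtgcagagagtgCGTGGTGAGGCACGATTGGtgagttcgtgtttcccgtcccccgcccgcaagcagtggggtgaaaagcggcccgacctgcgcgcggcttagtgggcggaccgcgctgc
Pdia6: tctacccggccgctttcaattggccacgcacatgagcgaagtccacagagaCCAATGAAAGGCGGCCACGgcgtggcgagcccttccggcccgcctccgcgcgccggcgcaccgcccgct
Herpud1: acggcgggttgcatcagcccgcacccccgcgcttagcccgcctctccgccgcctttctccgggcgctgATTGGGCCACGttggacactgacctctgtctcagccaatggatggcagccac
The ERSE of Hspa5 ran from base -65 to -47 before the start and its UPRE core from -157 to -150. Hsp90b1 carried an ERSE on the gene's strand from -212 to -194 and another on the opposite strand from -107 to -89. The ERSE of Pdia6 ran from -98 to -80, and the ERSE-II of Herpud1 from -52 to -42.

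By the animal numbers of the labels the arrays form 2 sets. The first set, numbers 289 to 437, holds 5 Control and 8 AdipoQ-LPL mice, and the second, 842 to 877, holds 7 Control and 4. The array medians were 6.86 to 6.97 in the first set and 7.22 to 7.29 in the second, and 82.9% of tested clusters differed between sets. Since the sets hold unequal shares of the genotypes, each difference is given by a fit to all mice, by a fit with the set in the model (the blocked value), and by fits to the mice of 1 set. Neither of the 2 Lpl clusters was called, with differences of -0.10 ± 0.07 (SE) and 0.17 ± 0.13 over all mice and of -0.02 ± 0.04 and 0.06 ± 0.09 with the set in the model. All 6 adipocyte markers were above the floor in every set and genotype. Markers of the epididymis stood high in 3 Control mice (replicates 5, 6 and 9), and no gene of the 10 was called with or without them.

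None of the 10 genes was called between genotypes at an adjusted p under 0.05 by limma, over all mice or with the set in the model. The background was as low, with 0.0099% of tested clusters called in either fit. The methods' t-test called none of the 10 either, and at an unadjusted p under 0.05 limma had 1 over all mice and 0 with the set in the model. At the study's thresholds, a fold change of 0.32 on the log2 scale and an unadjusted p under 0.02, none of the 10 passed, against 0.584% of all clusters. Over all mice 8 of 10 lay below 0, beside 78.9% of all clusters, and with the set in the model 4 of 10, beside 46.3%. Their median difference was -0.08 over all mice and 0.01 with the block, and that of all clusters was -0.08 and 0.01. The 95% intervals with the block lay within that fold threshold either way for all 10 genes, and over all mice for 8 of 10, Ern1 and Hspa5 being the exceptions.

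**Figure D1:**
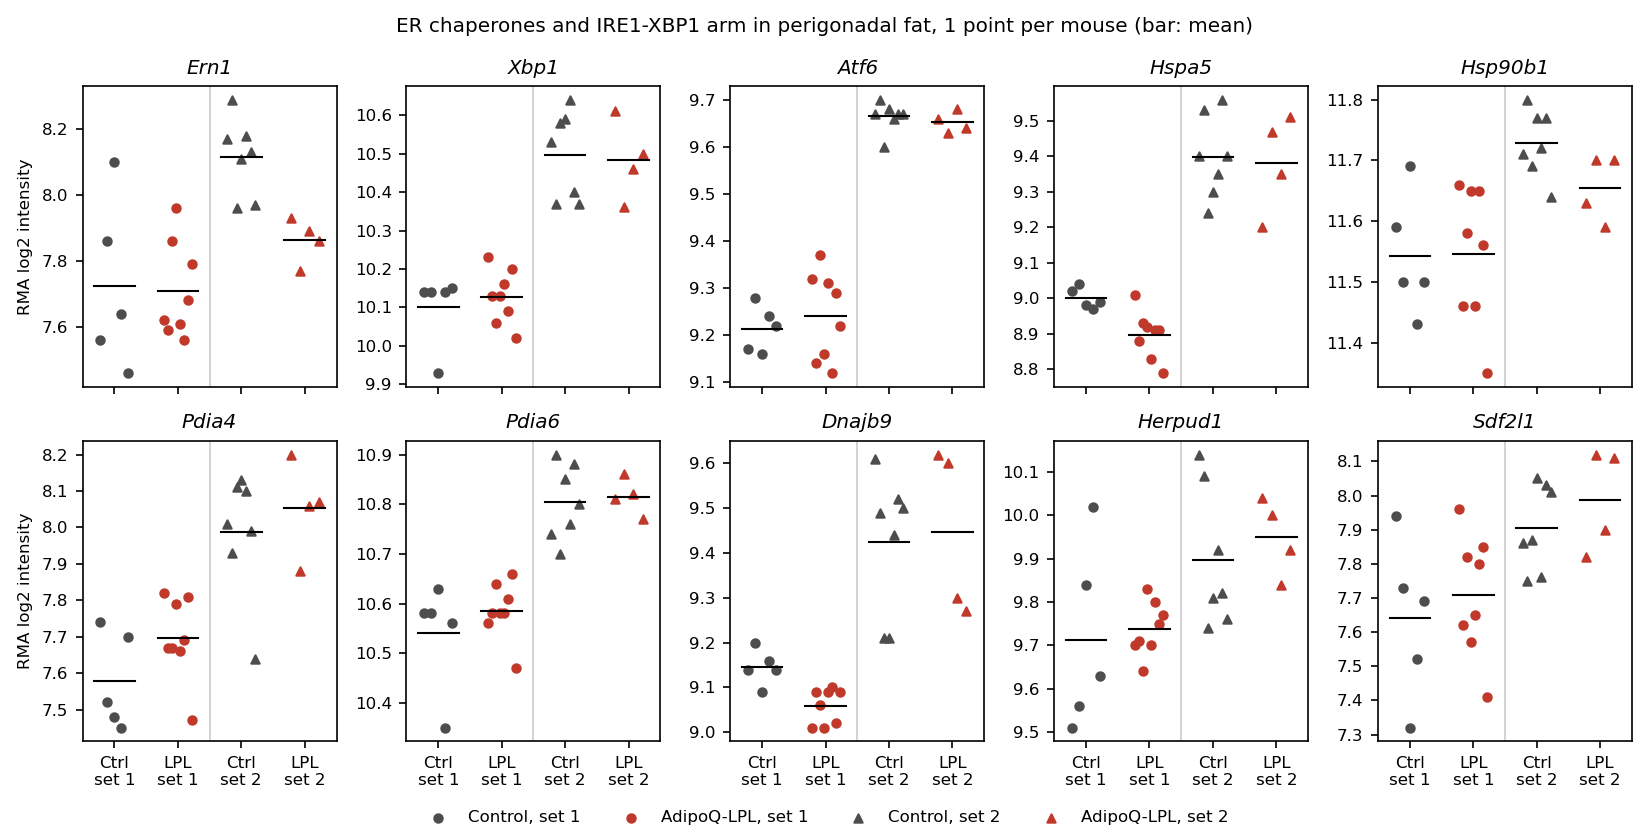
RMA log2 intensity (y axis) of each of the 10 genes in each mouse, by array set and genotype (x axis), with a bar at the mean. The means of the second set sit above those of the first in all 10 genes, and Ern1 in the second set is the only panel in which the genotypes do not overlap within a set.

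Ern1, which encodes the sensor IRE1, had the largest difference of the 10 over all mice, with the set in the model and within the second set, though not within the first. In the second array set the 4 AdipoQ-LPL mice measured 7.93, 7.77, 7.89 and 7.86, and the 7 Control mice ranged from 7.96 to 8.29 with a median of 8.13. Every AdipoQ-LPL mouse there was lower than every Control mouse. Such a lack of overlap, in either direction, was seen for 1.48% of all tested clusters in that set. The difference was -0.26 ± 0.07 (SE), or 0.838-fold, with an unadjusted p of 0.0037 and an adjusted p of 0.402 by limma, while 9.38% of all clusters had an unadjusted p under 0.05. The exact two-sided permutation test within the set gave p = 0.00909, where 330 relabellings allow no p below 0.00303.

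In the first array set the genotypes overlapped for Ern1 over nearly their whole range. The 5 Control mice measured 7.56, 7.86, 8.10, 7.64 and 7.46, and the 8 AdipoQ-LPL mice ran from 7.56 to 7.96 with a median of 7.65. The difference was -0.02 ± 0.10, and the exact permutation test gave p = 0.887. The difference of the 2 sets' effects was -0.24 ± 0.13, with an unadjusted p of 0.0845 and an adjusted p of 0.654 by limma, so the sets were not shown to differ. Over all mice Ern1 was -0.19 ± 0.09 (adjusted p = 0.691 by limma), and with the set in the model -0.12 ± 0.07 (adjusted p = 0.642 by limma). Without numbers 422 to 437, a run of 6 AdipoQ-LPL mice with no Control mouse, the blocked value was -0.21 ± 0.08 (adjusted p = 0.527 by limma). Ern1 was 1 of the 10 with an unadjusted p under 0.05 over all mice, and 5.63% of all clusters were too.

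Xbp1, the factor that IRE1 activates by splicing, had nearly equal means in the 2 genotypes within each set. In the first array set the 5 Control mice measured 10.14, 10.14, 9.93, 10.14 and 10.15, and the 8 AdipoQ-LPL mice 10.02 to 10.23 with a median of 10.13. In the second, the 4 AdipoQ-LPL mice measured 10.61, 10.36, 10.46 and 10.50 and the 7 Control mice 10.37 to 10.64 with a median of 10.53. The genotypes overlapped in both sets, and Control replicate 3 stood 0.215 below the nearest of its group. The difference was -0.09 ± 0.09 over all mice and 0.01 ± 0.04 with the set in the model, with a 95% interval of -0.08 to 0.10 for the latter. Atf6, the second sensor, differed by 0.01 ± 0.03 with the block, with an interval of -0.06 to 0.08. It varied less between mice of a group than nearly all genes, with a residual SD of 0.0622 at the 1.54th percentile of all clusters.

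**Figure D2:**
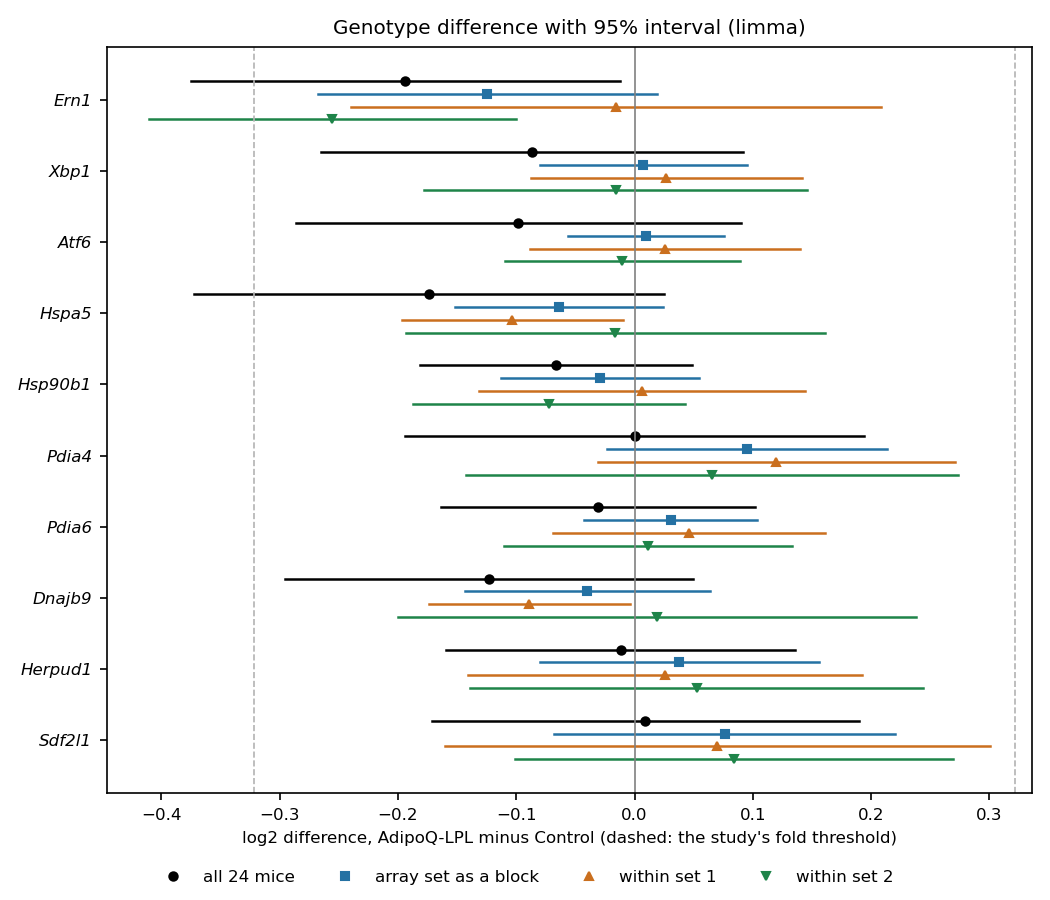
Log2 difference between genotypes (x axis) of each of the 10 genes (y axis), with the 95% interval from limma, over all 24 mice, with the set in the model and within each set; dashed lines mark the fold threshold of 0.32. Over all mice 8 points lie below 0, and with the block 4 do. The Ern1 interval in the second set, -0.41 to -0.10, is the one that lies wholly below 0 by the largest margin.

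Hspa5, the abundant chaperone BiP that also binds the sensors, had the lower mean with the transgene in the first set, though short of the adjusted threshold. The 5 Control mice there measured 9.02, 9.04, 8.98, 8.97 and 8.99, and the 8 AdipoQ-LPL mice 8.79 to 9.01 with a median of 8.91. Of these 8 mice, 7 lay below the Control mean, and 1, at 9.01, lay inside the Control range. The difference was -0.10 ± 0.04 or 0.931-fold, with an unadjusted p of 0.033 and an adjusted p of 0.59 by limma, and the exact permutation test gave p = 0.00855 over 1287 relabellings. In the second set the 4 AdipoQ-LPL mice measured 9.20, 9.47, 9.35 and 9.51 and the 7 Control mice 9.24 to 9.56 with a median of 9.40, so that the ranges nearly coincide. The difference there was -0.02 ± 0.08, and the sets' effects differed by 0.09 ± 0.09 (adjusted p = 0.788 by limma). With the array set as a block Hspa5 was -0.06 ± 0.04 (adjusted p = 0.682 by limma). Without numbers 422 to 437, the run with no Control mouse, the blocked value was -0.03 ± 0.05 (adjusted p = 0.875 by limma).

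Dnajb9 (ERdj4), a co-chaperone that brings unfolded proteins to BiP and is a known target of XBP1, had a like order in the first set. The 5 Control mice measured 9.14, 9.20, 9.09, 9.16 and 9.14, and the 8 AdipoQ-LPL mice 9.01 to 9.10 with a median of 9.07. All 8 lay below the Control mean, and Control replicate 3, at 9.09, lay inside the AdipoQ-LPL range. The difference was -0.09 ± 0.04 or 0.94-fold, with an unadjusted p of 0.041 by limma, and the exact permutation p was 0.00699. In the second set the difference was 0.02 ± 0.10, with AdipoQ-LPL mice at 9.62, 9.60, 9.30 and 9.27 and Control mice from 9.21 to 9.61. With the block it was -0.04 ± 0.05 (adjusted p = 0.829 by limma), and without numbers 422 to 437 as well -0.02 ± 0.07 (adjusted p = 0.934 by limma). Hspa5 and Dnajb9 were the 2 of 10 genes with an unadjusted p under 0.05 in the first set, where 8.1% of all clusters had one. No gene of the 10 had genotypes without overlap there, and 0.351% of all clusters did. The 20 exact permutation tests, 10 genes in 2 sets, were not adjusted.

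The other foldases stood close to 0 or a little above it. Hsp90b1 (GRP94), the ER member of the HSP90 family, had 7 of 12 AdipoQ-LPL mice below the Control mean of their own set and differed by -0.03 ± 0.04 with the block. Pdia4, a protein disulfide isomerase, had the highest blocked difference of the 10, 0.10 ± 0.06 (adjusted p = 0.652 by limma), and 10 of 12 AdipoQ-LPL mice were at or above the Control mean of their set. For Pdia6, another disulfide isomerase, the count was also 10 of 12, with a blocked difference of 0.03 ± 0.04. Sdf2l1, a partner of ERdj proteins in BiP complexes, was 0.08 ± 0.07 and Herpud1, which helps to recruit the degradation machinery of the ER membrane, 0.04 ± 0.06 with the block, with adjusted p of 0.767 and 0.855 by limma. With the block no gene of the 10 had an unadjusted p under 0.05, against 8.37% of all clusters.

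Within the second array set, Herpud1 and Dnajb9 had the widest gaps of the 10 genes between runs of animal numbers. The labels hold a run 842 to 845 (2 Control and 2 AdipoQ-LPL mice) and a run 871 to 877 (5 and 2), a split noticed after the values were seen. Herpud1 measured 10.14, 10.09, 10.04 and 10.00 in the first run and 9.74 to 9.92 in the second with a median of 9.82. The run difference, later minus earlier with genotype in the model, was -0.24 ± 0.06 (adjusted p = 0.0844 by limma). Dnajb9 measured 9.61, 9.49, 9.62 and 9.60 in the first run and 9.21 to 9.52 in the second. Its run difference was -0.24 ± 0.08 (adjusted p = 0.153 by limma). Of all clusters, 0.955% were called between the runs and none of the 10 genes was among them. The Ern1 genotype difference in that set was -0.27 ± 0.07 with the run in the model (adjusted p = 0.3 by limma). That of Dnajb9 was -0.03 ± 0.08 with the run in the model, where it was 0.02 without it (adjusted p = 0.902 by limma with the run). That of Herpud1 was 0.00 ± 0.06, where it was 0.05 without the run (adjusted p = 0.994 by limma with the run).

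The 10 genes did not vary as one block between mice. After the genotype means of each set were taken out, 24 of 45 pairs correlated with opposite signs in the 2 sets, over 13 and 11 mice, and the median r was -0.01 in the first and 0.20 in the second. The points share the array and its normalization, and the values are descriptions. Of the 3 pairs among the ERSE-bearing genes Hspa5, Hsp90b1 and Pdia6, all 3 had r above 0.3 in both sets, and of the other 42 pairs 2 did. Those 2 were Xbp1 with Pdia4, and Hspa5 with Sdf2l1 at 0.73 and 0.375. Many clusters were as like Hspa5: of 20207, Hsp90b1 ranked 127 in the first set and 1622 in the second. Pdia6 ranked 2029 and 2199, and Sdf2l1, with no ERSE found, 79 and 3891. Hspa5 and Hsp90b1 correlated at 0.71 and 0.57, Hspa5 and Pdia6 at 0.40 and 0.52, and Hsp90b1 and Pdia6 at 0.60 and 0.55. Without the 2 mice of a set farthest from its median for the first-named gene, these pairs stood at 0.46, 0.42 and 0.37 in the first set and at 0.55, 0.39 and 0.53 in the second. AdipoQ-LPL replicate 12 was the lowest of the first set's 8 in 6 of the 10 genes, namely Hspa5, Hsp90b1, Pdia6, Pdia4, Sdf2l1 and Xbp1. Without it, Hspa5 and Pdia6 stood at 0.15 in the first set, and 2 of the 3 ERSE pairs and 4 of the other 42 had r above 0.3 in both sets, a setting added after the values were seen.

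Xbp1 correlated positively with Pdia4 in both sets, and with Hspa5 in the first alone. Xbp1 and Pdia4 correlated at 0.61 in the first set and 0.85 in the second, and without the 2 mice farthest on Xbp1 at 0.38 in the first and 0.90 in the second. Xbp1 and Hspa5 had r = 0.45 in the first set and r = -0.73 in the second, where the mice of highest Xbp1 were those of low Hspa5. AdipoQ-LPL replicate 1, for example, held the highest Xbp1 of its group, 10.61, and the lowest Hspa5, 9.20. Without the 2 mice farthest on Xbp1, Xbp1 and Hspa5 stood at 0.20 in the first set and -0.765 in the second. Without AdipoQ-LPL replicate 12 they stood at 0.27 in the first set. Plasma cells are rich in XBP1, and 6 of 7 listed markers of them were on the array. The mean of these 6 correlated with Hspa5 at -0.33 and -0.74 in the 2 sets and with Xbp1 at -0.18 and 0.63. Its level in the second set ran from 5.92 to 6.82 in Control and 6.07 to 6.48 in AdipoQ-LPL mice. This mean was not scaled by marker, and Igj had the widest range of the 6, from 3.62 to 8.39 over all mice. Another of the 6, Derl3, is also in the ER-associated degradation list. The mean of 6 adipocyte markers correlated with Ern1 at -0.58 and -0.46 and with Hsp90b1 at -0.73 and -0.19. For the ERSE-bearing genes, the mean of 5 stromal fibroblast markers correlated with Hsp90b1 at 0.86 in the first set and -0.28 in the second. With Pdia6 that mean stood at 0.825 and 0.007, and with Hspa5 at 0.48 and -0.24. All 6 macrophage markers on the array, of 7 listed, had blocked differences above 0 and none was called, from Emr1 at 0.16 to Csf1r at 0.27 (unadjusted p = 0.00247 and adjusted p = 0.494 by limma). Their mean level ran from 9.40 to 10.2 in Control and 10.0 to 10.6 in AdipoQ-LPL mice of the first set, and from 9.94 to 10.4 and 10.1 to 10.4 in the second. It correlated with Ern1 at -0.47 and -0.58 in the 2 sets, with Herpud1 at -0.41 and -0.52 and with Sdf2l1 at 0.72 and 0.20. The part of cell composition in these values was not tested, and in bulk tissue fewer cells of a type and less RNA per cell cannot be told apart.

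**Figure D3:**
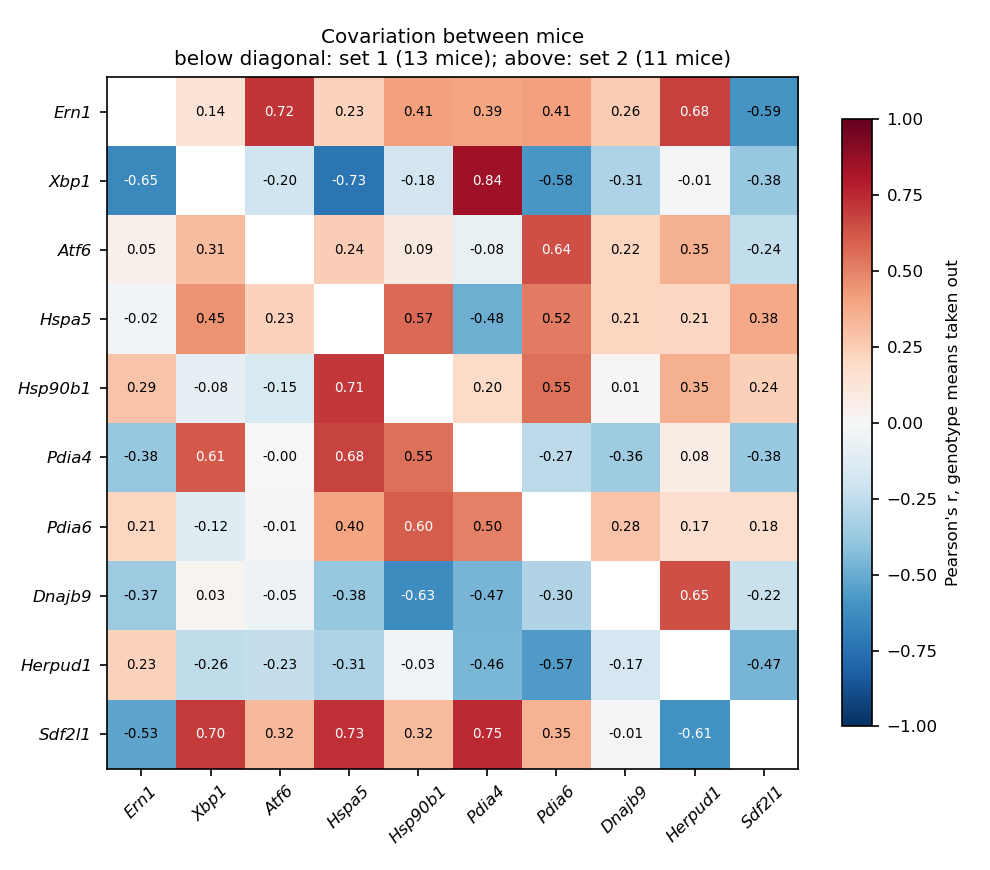
Pearson's r between pairs of the 10 genes (rows and columns) after the genotype means were taken out, below the diagonal for the 13 mice of the first array set and above it for the 11 of the second, with colour from -1 to 1. Pairs among Hspa5, Hsp90b1 and Pdia6 are positive on both sides, while Xbp1 and Hspa5 are at 0.45 below and -0.73 above.

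The clusters most like Hspa5 over the 24 mice were mostly genes outside the chaperone family. The most alike was Eif4e2, a cap-binding protein, at r = 0.85, followed by Ostc, a subunit of the oligosaccharyltransferase that glycosylates proteins entering the ER, at 0.81, and Copb1, a coat protein of Golgi-to-ER vesicles, at 0.81. Stip1 and Cct8, parts of the cytosolic chaperone machinery, stood at 0.79 each. The other 10 of the 15 highest were Azin1, Cope, Ppp4r1, Minpp1, Sfxn2, Hnrpll, Psmd10, Pole3, Erlec1 and Col6a1, from 0.77 down to 0.74. Without the 2 mice farthest on Hspa5, Eif4e2 stood at 0.80 and Ostc at 0.69. The likeness was uneven between the sets for some of these genes. In the first and second set Ostc stood at 0.40 and 0.92, Cope at 0.42 and 0.94 and Eif4e2 at 0.66 and 0.93. For Copb1 the values were 0.79 and 0.84, for Stip1 0.75 and 0.83 and for Cct8 0.74 and 0.83. Cope is a further subunit of that vesicle coat and Erlec1 an ER lectin. None of the 10 genes was among them: Hsp90b1 ranked 659 of 20207 at r = 0.49, Sdf2l1 1013 at 0.45 and Pdia6 1371 at 0.41, while Xbp1 ranked 18293 at -0.39.

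The wider ER genes held no called gene either. Of 27 other ER chaperones and folding enzymes, 23 lay below 0 with the set in the model, with a median of -0.03, where 46.3% of all clusters did and their median was 0.01. For the 3 of highest mean signal the differences were near 0, with Calr (calreticulin) by 0.00 ± 0.04, Canx (calnexin) by -0.03 ± 0.04 and Pdia3 by -0.03 ± 0.04, the lectin chaperones and their disulfide isomerase. Hyou1, a nucleotide exchange factor of BiP, was -0.09 ± 0.04 and Fkbp14, a prolyl isomerase for collagen, -0.10 ± 0.05. Over all mice 26 of these 27 lay below 0, beside the 78.9% of all clusters. Within the sets 19 and 18 of 27 did, beside 51.1% and 42.5%. With the block 0 of the 27 had an unadjusted p under 0.05 by limma, against 8.37% of all clusters. In the first set 0 did, against 8.1%, and in the second 3.7%, against 9.38%.

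The translocon and signal peptidase list, the channel and enzymes through which proteins enter the ER, had 20 of 26 genes below 0 with the block and a median of -0.04. Sec61g, a subunit of the channel, was -0.16 ± 0.06 with an unadjusted p of 0.0153 and an adjusted p of 0.52 by limma, with -0.16 in each array set. Sec11c, of the signal peptidase, was -0.12 ± 0.05 (adjusted p = 0.579 by limma), with -0.11 and -0.12 in the 2 sets. Sec61a1, Ssr2 and Dad1, the 3 of highest mean signal, were -0.05 ± 0.05, -0.05 ± 0.05 and -0.07 ± 0.03. Ssr3 and Ssr4, of the complex beside the channel that assists translocation, were -0.10 ± 0.04 each, named for their unadjusted p of 0.0235 and 0.0315 with the block. In this list 15.4% of genes had an unadjusted p under 0.05 with the block, all lower, against 8.37% of all clusters in either direction, and 7.69% did in the first set and none in the second.

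The ER-associated degradation genes, which return misfolded proteins to the cytosol, split evenly with the block, with 12 of 24 below 0 and a median of 0.00. The sets were less even, with 15 of 24 below 0 in the first, beside 51.1% of all clusters. In the second, 4 of 24 lay below 0, beside 42.5%. Edem1, a mannose-trimming factor and XBP1 target, was 0.06 ± 0.06, Derl1, of the retrotranslocation complex, 0.05 ± 0.05, and Vcp, the ATPase that extracts the proteins, -0.04 ± 0.04. Rnf5, a ubiquitin ligase, was -0.08 ± 0.05 and Ubxn4, which recruits Vcp, -0.04 ± 0.03. Of this list 8.33% had an unadjusted p under 0.05 with the block, both higher. These were Os9, a lectin that finds misfolded glycoproteins, at 0.09 ± 0.03 (adjusted p = 0.504 by limma) and Sel1l, the scaffold of the ligase complex it serves, at 0.09 ± 0.04 (adjusted p = 0.541 by limma), named after their values were seen. Of the RNAs that IRE1 is known to cut (RIDD substrates), 2 of 7 lay below 0. Scara3 was 0.19 ± 0.08 with 0.15 and 0.24 in the 2 sets (adjusted p = 0.541 by limma), Sparc 0.00 ± 0.03, Col6a1 -0.05 ± 0.07 and Pmp22 0.02 ± 0.05.

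Other sensors and regulators of the response had 9 of 19 genes below 0 with the block, with a median of 0.00. Traf2, the adaptor that IRE1 recruits for kinase signalling, was -0.13 ± 0.05 with an unadjusted p of 0.0238 and an adjusted p of 0.561 by limma. Tmbim6 (BI-1), an inhibitor of IRE1, was 0.02 ± 0.03 and Bax, a pro-apoptotic partner of IRE1, -0.09 ± 0.05. The ATF6 relatives Creb3 and Creb3l2 were -0.01 ± 0.05 and -0.02 ± 0.06. In the PERK-ATF4 arm 8 of 15 genes lay below 0, with a median of -0.02. Atf4, its transcription factor, was -0.18 ± 0.05 (adjusted p = 0.494 by limma), with -0.29 in the first set and -0.04 in the second. Ddit4, an inhibitor of mTORC1, was -0.30 ± 0.11 (adjusted p = 0.51 by limma), with -0.48 and -0.09 in the 2 sets. The 3 of highest mean signal in that arm were Vldlr, a lipoprotein receptor, at -0.03 ± 0.09, Nupr1, a stress-induced chromatin protein, at 0.01 ± 0.05, and Cebpg, a partner of ATF4, at -0.06 ± 0.06. By set, 11 of the arm's 15 genes lay below 0 in the first and 4 in the second, beside 51.1% and 42.5% of all clusters. With the block 13.3% had an unadjusted p under 0.05 by limma, all lower, against 8.37% of all clusters. In the first set 26.7% did, all lower, against 8.1%, and in the second 0%, against 9.38%.

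**Figure D4:**
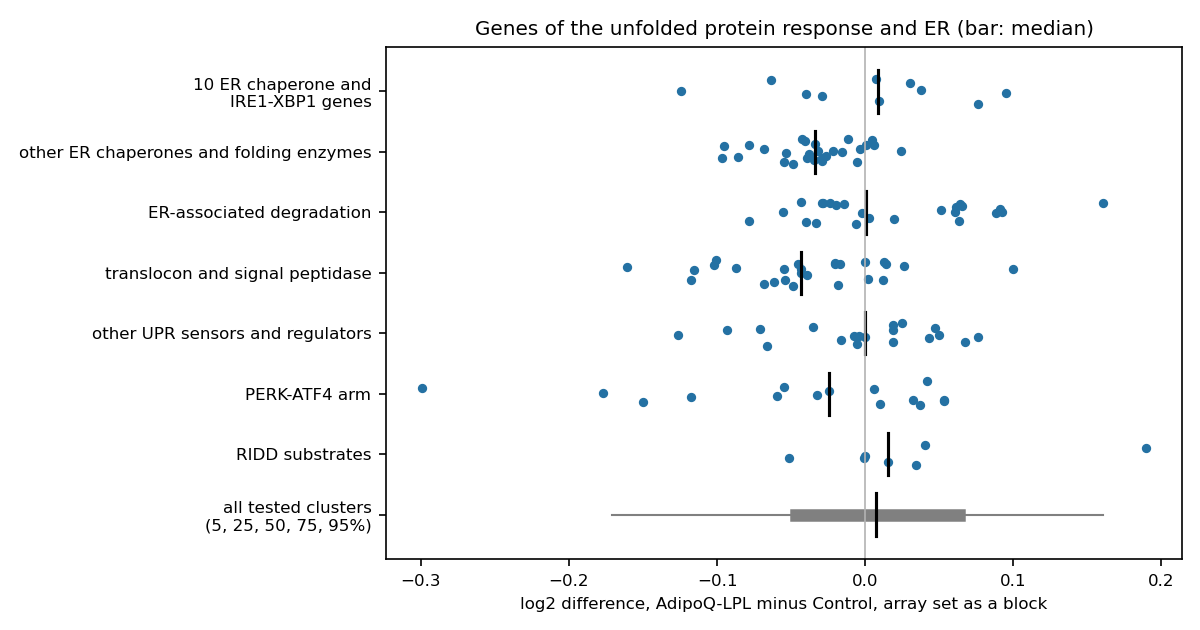
Log2 difference between genotypes with the set in the model (x axis) of each tested gene of the 10 genes and 6 further lists (y axis), with a bar at each median; the lowest line gives the 5th, 25th, 50th, 75th and 95th percentiles of all 20208 tested clusters, -0.17, -0.05, 0.01, 0.06 and 0.16. The medians of all 7 lists lie between -0.04 and 0.02. The percentiles describe single clusters, so they are no yardstick for the median of a list.

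All 10 genes differed between the array sets, with adjusted p of 0.003 at most by limma, as did most clusters. The second set was higher by 0.15 to 0.44, with Hspa5 (0.44 ± 0.04) and Atf6 (0.43 ± 0.03) the highest and Hsp90b1 (0.15 ± 0.04) the lowest, where the median shift of all clusters was 0.33. These shifts cannot be told apart from the sets' array levels. Under array weights without the set in the model, 8 of the 10 genes and 74.1% of all clusters were called, and with the set in the model as well none of the 10 was. The weights given to the arrays followed set and genotype, with medians of 0.438 and 2.33 for Control and AdipoQ-LPL mice of the first set and 1.75 and 0.32 in the second.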

How the data were processed

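RNA from perigonadal fat of 24 mice was labelled with biotin and hybridised to Affymetrix mouse 2.0 arrays. The deposited log2 values, 41345 transcript clusters per array, are the authors' RMA output. For RMA and Partek the version is not given in the sources used here. The deposited Partek sheets also hold the authors' own comparisons (fold changes and p-values), which were not used; 1 sheet gave the gene symbols. Of a gene with several clusters, that of highest mean was used. Named clusters whose mean reached a log2 value of 5 in 1 genotype or both entered limma 3.58.1 (R 4.3.3), by genotype alone after the methods' unpaired design, two-sided, with Benjamini-Hochberg adjustment over all 20208 clusters. Exact permutation tests ran in Python 3.11.15 (numpy 2.4.6, pandas 2.3.3, scipy 1.17.1), with figures in matplotlib 3.10.9. The code was tested on simulated data.

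Named genes were the 10, the 3 of highest mean signal and the 2 of lowest p of each further list, and the 15 clusters most like Hspa5. Lowest p was taken from the fit over all mice, and Os9, Sel1l, Ssr3 and Ssr4 were added after their values were seen. The members and lists were chosen with earlier results of these data known. Alternatives included blocks, centring, quantile normalization, array weights, no floor, the methods' t-test, and omission of each mouse. Nothing in the labels says that replicates are other than separate animals; the number of arrays limits the precision.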

Additional observations from a re-analysis of the deposited data

Results flagged for a closer look

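Within each array set and genotype, each of the 10 genes was checked for a mouse that stands apart from the others, by the gap to its nearest neighbour over the range of the group. Of 40 such groups 5 held one, where chance alone gives about 1 in 20, and in each it was the lowest mouse. Xbp1 in Control replicate 3 of the first set was 9.93, which is 0.215 below the next of 5 mice. Pdia6 in Control replicate 4 of that set was 10.35, 0.208 below the next of 5. Pdia4 in AdipoQ-LPL replicate 12 of the first set was 7.47, 0.189 below the next of 8, and in Control replicate 12 of the second set 7.64, 0.283 below the next of 7. Atf6 in Control replicate 8 of the second set was 9.60, 0.0536 below the next of 7. Control replicate 3 also held the highest Ern1 of the first set, 8.10, and Control replicate 12 shared the lowest Xbp1 of the Control mice of the second set, 10.37. What sets these mice apart was not tested.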

How the results depend on the processing

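The count of 0 of 10 genes called by limma, and of 0 at the study's thresholds, held with the set in the model, within each set, and under centring, quantile normalization, an intensity trend, no floor, the mean over a gene's clusters, the methods' t-test, omission of numbers 422 to 437, and omission of any 1 mouse. Array weights without the array set were the exception, with 8 genes called and 2 at the study's thresholds. Of the 15 clusters most like Hspa5, 9 were also among the 15 highest by Spearman's rho, and 11 where only the set means were taken out. The replicate numbers do not pair the mice, since 1 of 12 same-numbered pairs had deviations that correlated above 0.1. Most of these pairs also span the 2 array sets. With a replicate block 0 genes were called. Such a block cannot change the size of a difference, because each replicate number holds 1 mouse of each genotype.

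All differences that turned sign were of genes that were not called over all mice, and the cause was not tested. With the set in the model, the values that turned were Xbp1 0.0075, Atf6 0.0095, Pdia6 0.030 and Herpud1 0.038. Within the first set they were Xbp1 0.027, Atf6 0.026, Hsp90b1 0.0063, Pdia6 0.046 and Herpud1 0.026, and within the second Pdia6 0.011, Dnajb9 0.019 and Herpud1 0.052. With arrays centred on their medians they were Hsp90b1 0.0073, Pdia6 0.042 and Herpud1 0.062, and after quantile normalization Pdia6 0.036 and Herpud1 0.068. Without numbers 422 to 437 and with no block they were Xbp1 0.049, Atf6 0.035, Hspa5 0.0025, Pdia6 0.040, Dnajb9 0.0033 and Herpud1 0.0496, and under array weights Pdia4 -0.22 and Sdf2l1 -0.14. Around the blocked value, Xbp1 turned to -0.0075 with centring as well and to -0.0063 with array weights, and Atf6 to -0.0055 with centring and to -0.0022 without numbers 422 to 437. These further changes to the blocked fit were added with the values in view, as were the runs within the second set and the omission of 3 Control mice. With the run in the model, Dnajb9 within the second set turned back to -0.031. With 1 mouse left out in turn, the differences that changed sign over all mice ran from -0.034 to 0.032 for Pdia4, -0.0396 to 0.018 for Herpud1 and -0.034 to 0.045 for Sdf2l1, and with the block from -0.016 to 0.026 for Xbp1 and from -0.00083 to 0.018 for Atf6. The number of arrays limits what can be seen, with a median SE of 0.0983 over all mice and 0.0662 with the block.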
